A study of Rattus norvegicus with 24 samples.

Results

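The metalloproteinases of the matrix and cell surface and their tissue inhibitors were followed through a table of rat lung mRNA. Every row whose symbol begins with Mmp, Timp, Adam or Adamts followed by a digit was taken, except Mmp12, which is not described here. This gave 63 of the 30667 rows: 19 matrix metalloproteinases, 4 tissue inhibitors, 21 ADAMs and 19 ADAMTS proteases. The samples were 24 pieces of lung tissue of rats in which lung cancer was modelled with smoky coal, a coal whose smoke carries polycyclic aromatic hydrocarbons. All 24 have smoky coal as their protocol and are titled by 1 of the numbers 1 to 6 behind the letter A, B, C or G, with 1 sample for each combination. The labels do not say what a letter or a number stands for, name no control, and give no strain, age, dose or time. They also do not say whether samples of 1 number share an animal, so p-values measure only the spread between these samples.

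Matrix metalloproteinases are zinc enzymes, secreted or anchored in the membrane as inactive precursors, that cut collagens, elastin and other matrix proteins. The tissue inhibitors bind their active site. ADAMs are membrane proteins of which many release the outer domains of growth factors, cytokines and receptors, and ADAMTS proteases are secreted, carry thrombospondin repeats, and trim proteoglycans, procollagens and other matrix proteins. In the lung, these enzymes are known for their part in emphysema, fibrosis and the spread of tumours.

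Values are normalized read counts as deposited, and their sum per sample lay between 61717516 and 66007148, so the sequencing depth is unknown. Since no gene lengths were used, levels are compared between samples and not between genes. The tissue label was checked with lung epithelial markers: Sftpc, a surfactant protein of alveolar type 2 cells, lay between 603887 and 932776. Of the 63 members, 52 had a mean of at least 10 and 11 a mean of 1.42 to 9.78. Deviations from the letter means were most alike between samples of the same number in 22 of 24 samples, over the 21922 rows with a mean of at least 10.

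No member was called between letters in the model of the letters alone. With the number added to that model as a block, 1 member was called, Timp3 in G against A. A member is called where its p-value from the limma fit, adjusted by Benjamini-Hochberg over all 30667 rows, is under 0.05. In the F test over the 4 letters 0 of 63 members were called, against 0.00652% of all rows, and 1 member had an unadjusted p under 0.05, against 3.91% of all rows. All 6 pairs of letters called 0 members. The share of all rows called was 0% for B, and likewise 0% for C, when set against A, 0% for C against B, 0.00652% for G against A, 0.00326% for G against B and 0.00652% for G against C. An unadjusted p under 0.05 was found for 1 member in B against A (3.58% of all rows), 1 in C against A (2.98%), 0 in C against B (1.82%), 1 in G against A (8.15%), 0 in G against B (3.67%) and 1 in G against C (4.03%).

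The member with the smallest F test p over letters was Timp3, the matrix-bound inhibitor that also blocks Adam17 and several ADAMTS proteases. Letter A had a level of 34106 ± 7522 (mean ± SD, n = 6), letter B of 44894 ± 6725, letter C of 44210.3 ± 11519.5 and letter G of 44474 ± 4152. Letter A ranged over 19582 to 39911 (median 36286) and letter G over 40137 to 51148 (median 43328), so all 6 samples of G lay just above the 6 of A, as in 0.196% of all rows, and B and C overlapped with G. No other pair of letters was so separated in any member. The lowest of all 24 values was 19582 in A2. The log2 fold change of G against A was 0.42 (SE 0.16, adjusted p = 0.516), and that of B against A was 0.42 (SE 0.16, adjusted p = 1). In the limma fit with the number as a block, G against A had an SE of 0.09 and an adjusted p of 0.0361. In that fit the unadjusted p was 0.000287 for G against A, 0.000267 for B against A and 0.000827 for C against A. The adjusted p was 0.479 for B against A and 0.749 for C against A. That fit called 1.27% of all rows in G against A and 0% in B or C against A. No label says that a number marks a shared animal or batch. Adam22, a neuronal ADAM without a catalytic site, was 183 ± 29.8 in G and 137 ± 21.6 in C, a log2 fold change of 0.41 (SE 0.14, adjusted p = 1). The other members among the 4 smallest F test p-values were Mmp20, the enamel protease, at 0 to 7.90, and Adam32, at 0 to 10.03, both with a mean under 10. In no member did the 6 samples of 1 letter lie wholly above or below the other 18, against 0% of all rows for each letter and direction, except G below the others at 0.0196%.

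**Figure D1:**
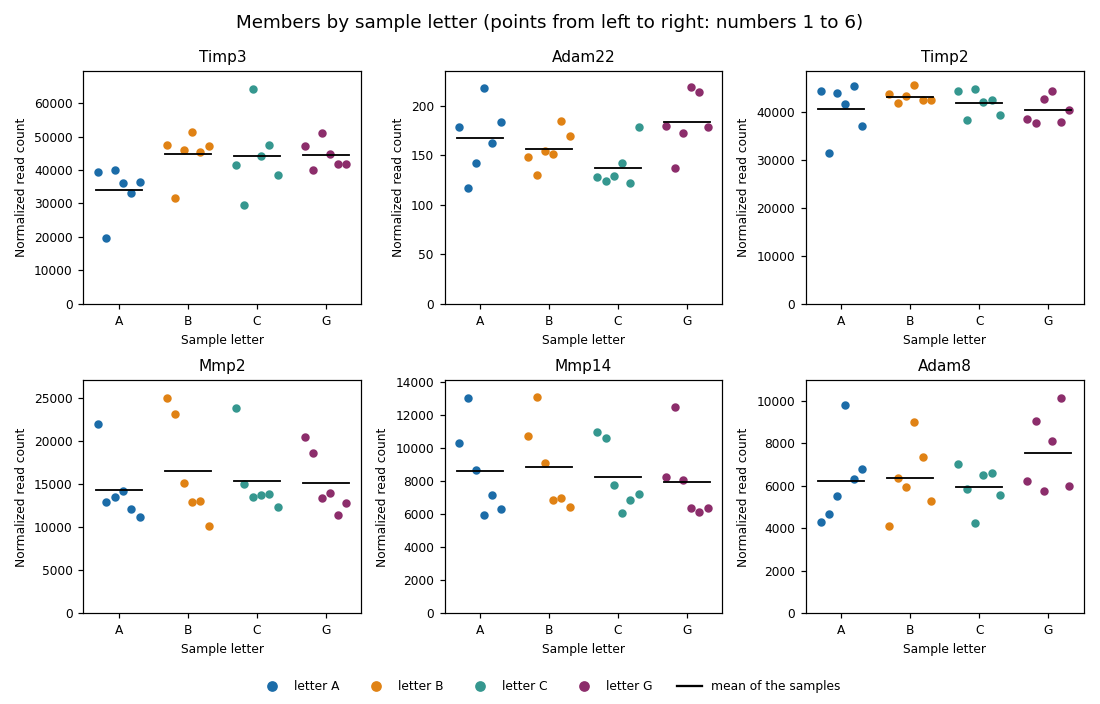
Normalized read counts (vertical axes, from 0) of 6 members by sample letter, 1 point per sample in the order of the numbers 1 to 6, with the mean of each letter. The letters overlap in each panel, except that the Timp3 values of A, the lowest of which is sample A2, end just below those of G.

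By number the members differed widely. The F test over the 6 numbers, with the letter as a term, called 37 of 63 members (58.7%) against 31.5% of all rows. They were 11 of 19 matrix metalloproteinases, 2 of 4 tissue inhibitors, 9 of 21 ADAMs and 15 of 19 ADAMTS proteases. In a fit of only the rows with a mean of at least 10, 37 of 52 members were called, against 46.7% of those rows. The median member had 51.5% of its variance between numbers and 7.16% between letters, against 37.1% and 9.45% over all rows. The share between numbers was the larger in 60 of 63 members and in 26438 of all 30667 rows. Numbers have 5 degrees of freedom and letters 3, which alone favours the share between numbers. Each number was then compared with the mean of the other 5, so a member that is very high in 1 number also lowers the contrasts of the others. The F test called 36 members without the samples numbered 2 (25.4% of all rows) and 26 without those numbered 1 (22.0% of all rows), both alternatives chosen after the data were seen. The plot of all 37 called members by sample shows a block of ADAMTS proteases high in number 1 and a second block, led by Mmp7, high in number 2.

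**Figure D2:**
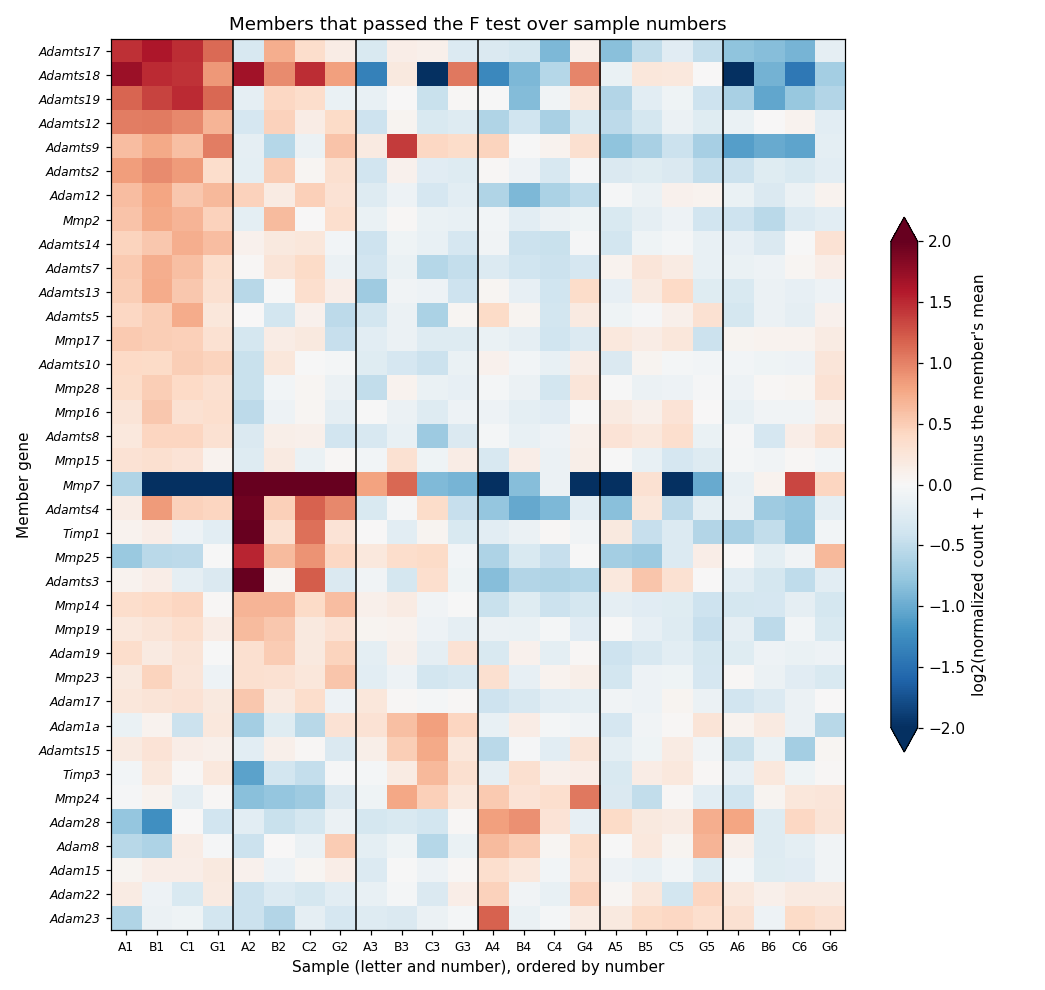
Log2(normalized count + 1) minus the member's mean over 24 samples (colour; the scale ends at 2 in either direction) for the 37 members called in the F test over numbers. Columns are samples ordered by number and rows are members; the 4 samples of number 1 are high for the upper rows, and those of number 2 for Mmp7 and the rows just below it.

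Number 1 had more members called than any other number. Of 63 members, 23 were higher and 3 lower than in the other numbers, together 26 (41.3%) against 11.9% of all rows, of which 5.62% were higher and 6.25% lower. The higher members were 13 of 19 ADAMTS proteases, 7 of 19 matrix metalloproteinases and 3 of 21 ADAMs. The median log2 fold change was 0.12 over the members and -0.02 over all rows. In 8 members all 4 samples numbered 1 lay above the other 20 (12.7%, against 1.35% of all rows): Mmp17, Mmp28, Adam12, Adamts10, Adamts12, Adamts14, Adamts17 and Adamts19. When each of the 24 samples was left out in turn, 14 of the 26 calls held every time.

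The highest log2 fold change in number 1 was that of Adamts17. This protease, which is needed for normal fibrillin assembly, was at 4248, 4768, 4294 and 3402 in A1, B1, C1 and G1 and at 816 to 2565 in the other 20 samples (log2 fold change 1.70, SE 0.16, adjusted p = 8.43e-07). The ranges did not meet, and B2 was the highest outside number 1. Adamts19, a related protease known for its part in heart valves, was at 311, 354, 394 and 309 in the same samples against 67.2 to 186 (log2 fold change 1.55, SE 0.16, adjusted p = 2.91e-06). Adamts12, which cuts cartilage oligomeric matrix protein, was at 2050.4, 2087, 1981 and 1631 against 648 to 1395 (log2 fold change 1.11, SE 0.10, adjusted p = 3.67e-07). For both, every sample numbered 1 was above every other sample. Adamts7, which shares that substrate, was at 2092, 2408, 2215 and 1860.3 against 979 to 1892 (log2 fold change 0.66, SE 0.08, adjusted p = 1.85e-05). Here C2, at 1892, stood above G1.

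**Figure D3:**
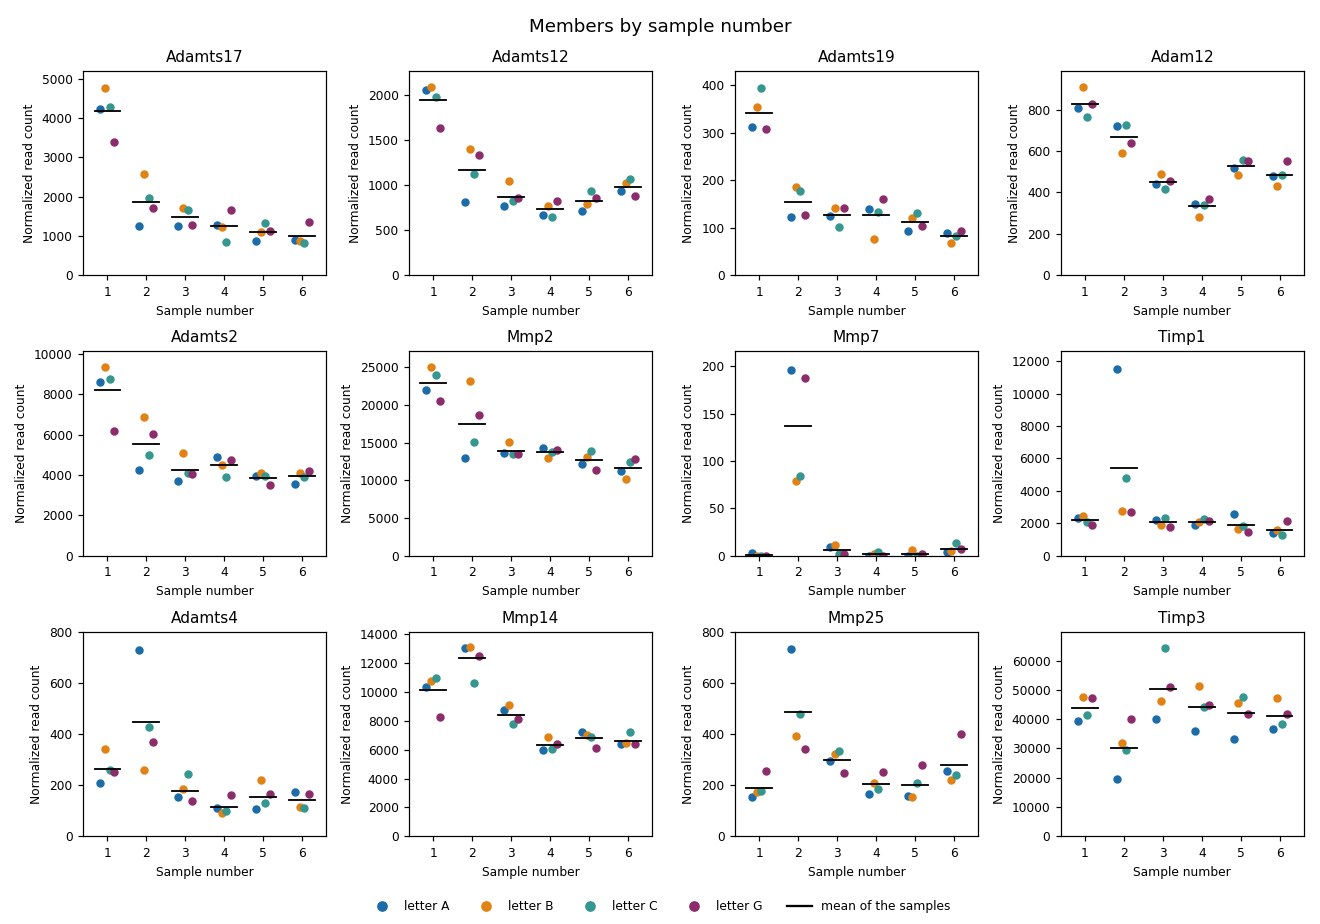
Normalized read counts (vertical axes, from 0) of 12 members by sample number, 1 point per sample with 1 colour per letter, and the mean of each number. Adamts17, Adamts12, Adamts19 and Adam12 have all 4 samples of number 1 above the other 20, and Mmp7 and Timp1 all 4 samples of number 2.

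Members that trim procollagen and proteoglycans were also among those that rose in number 1. Of the 3 procollagen-processing ADAMTS proteases, 2 were higher (median log2 fold change over the 3 of 0.70). Adamts2, which removes the amino-terminal propeptide of fibrillar collagens, was at 8598, 9356, 8768 and 6166 in A1, B1, C1 and G1 and at 3492 to 6880.1 elsewhere (log2 fold change 0.90, SE 0.09, adjusted p = 3.95e-06). G1 lay below B2, and the other 3 samples lay above every sample of another number. Adamts14, with the same activity, was at 1553, 1659, 1893 and 1755 against 837 to 1392 (log2 fold change 0.70, SE 0.09, adjusted p = 5.89e-05). Adamts3 was not called for number 1 (-0.08, adjusted p = 0.904). Of the 7 aggrecan- and versican-cleaving members 3 were higher (median 0.41): Adamts9 (0.90, adjusted p = 0.00167), Adamts5, the main aggrecanase of mouse cartilage (0.56, adjusted p = 0.00793), and Adamts8 (0.41, adjusted p = 0.0196). Adamts5 lost its call without C1 (adjusted p = 0.0797), and Adamts8 without B1, C1 or G1 (0.0945, 0.0824 and 0.0523). Adamts9 was at 5799, 6342, 5696 and 7694 in the 4 samples of number 1, and the highest value of all was 9947 in B3. Of the 9 remaining ADAMTS proteases 8 were higher (median 0.66), among them Adamts13, which cuts von Willebrand factor (0.62, adjusted p = 0.00661), Adamts10, which acts on fibrillin microfibrils (0.51, adjusted p = 0.000224), and Adamts6 (0.43, adjusted p = 0.0102). Without A1 the calls of Adamts13 and Adamts6 were lost (adjusted p = 0.0576 and 0.0541).

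Of the matrix metalloproteinases, membrane-bound enzymes and gelatinase A were higher in number 1. Of the 6 membrane-type members 4 were higher and 1 lower, with a median log2 fold change of 0.32. Mmp14, the membrane collagenase that activates the precursor of Mmp2, was at 10345, 10779, 10986 and 8278 in A1, B1, C1 and G1 (log2 fold change 0.36, SE 0.06, adjusted p = 0.000578), and A2, B2 and G2 were higher than all 4. Mmp2, gelatinase A, was at 21989, 25059.8, 23928 and 20523 against 10207 to 23176 in the other 20 samples (log2 fold change 0.74, SE 0.09, adjusted p = 2.56e-05). Number 1 held the highest Mmp2 value within each of the 4 letters, and B2, at 23176, lay above A1 and G1. Mmp17 (0.54, adjusted p = 0.000763), Mmp16 (0.43, adjusted p = 0.000858) and Mmp15 (0.29, adjusted p = 0.0129) were the other membrane-type members that rose, and the call of Mmp15 was lost without A1 or C1 (adjusted p = 0.104 and 0.0864). Mmp28, an epilysin made in resting epithelium, was at 1243, 1359.7, 1262 and 1203 against 679.7 to 1171 (log2 fold change 0.48, SE 0.09, adjusted p = 0.0012). Adam12, a protease of mesenchymal cells, was at 807, 909.8, 765 and 826 against 282 to 727 (log2 fold change 0.78, SE 0.07, adjusted p = 9.83e-07), and number 4 held the lowest value within each letter. Adam17, the enzyme that releases tumour necrosis factor, rose by a small amount (0.29, adjusted p = 0.0182), and leaving out A1, B1, C1 or G1 ended the call (adjusted p = 0.0589, 0.0927, 0.0612 and 0.0522). Adam19 (0.23, adjusted p = 0.0444) stayed called in 8 of the 24 fits, and Mmp19 (0.29, adjusted p = 0.0145) lost its call without B1, C1 or G1 (0.0618, 0.0881 and 0.0604).

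The 3 members that were lower in number 1 were Adam28, Mmp7 and Mmp25. Adam28, known from lymphocytes and epithelium, was at 113, 82.3, 194 and 148 in A1, B1, C1 and G1 (log2 fold change -0.71, SE 0.19, adjusted p = 0.0188), and without A1 or B1 the adjusted p was 0.131 or 0.161. Mmp25, a neutrophil membrane protease, was at 153, 175, 177 and 255 (-0.54, adjusted p = 0.0484). Leaving out 1 sample at a time, it stayed called in 5 of 24 fits, with an adjusted p of 0.23 without A1. Mmp7 was at 2.79, 0, 0.0172 and 0.0154 (-2.43, adjusted p = 0.00552), and without B1 its adjusted p was 0.0503. With a pseudocount of 0.1 the log2 fold change was -4.13. Mmp7 and Mmp25 both had their highest mean in number 2, which is part of the reference here.

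**Figure D4:**
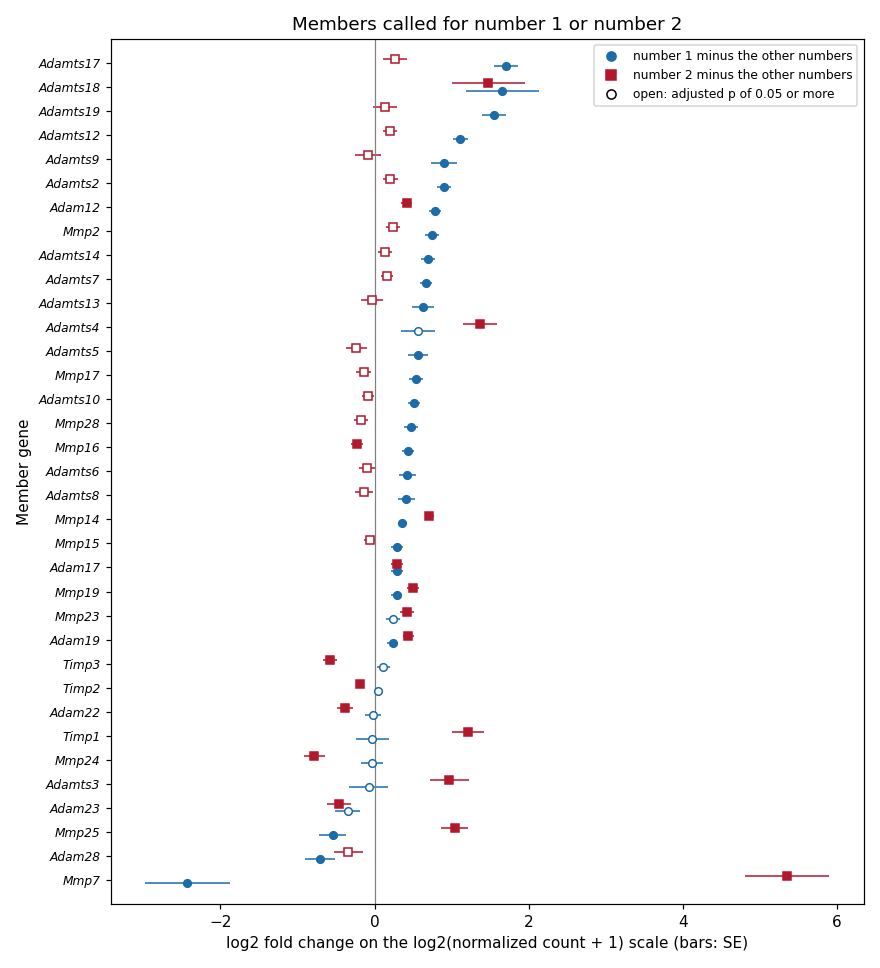
Log2 fold change (horizontal axis, with SE as bars) of number 1 and of number 2 against the mean of the other numbers, for each member called in either. Filled symbols have an adjusted p under 0.05; Adamts17 is farthest to the right for number 1, and Mmp7 is farthest out for both, on the lower side for number 1 and the higher side for number 2.

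Number 2 was led by Mmp7, matrilysin, a small secreted protease that injured epithelium makes and that cuts matrix, defensin precursors and cell-surface proteins. It stood at 196, 78.6, 84.4 and 187 in A2, B2, C2 and G2 and at 0 to 13.4 in the other 20 samples (log2 fold change 5.35, SE 0.55, adjusted p = 1.83e-06). All 4 samples were far above the rest, with A2 and G2 the highest. The fold change depends on the pseudocount because many other values are near 0, and with 0.1 in place of 1 it was 6.62. In all, 18 of 63 members (28.6%) were called for number 2 against 21.8% of all rows. Higher were 12 members (19%, against 11.5% of all rows) and lower 6 (9.52%, against 10.3%). In a fit of rows with a mean of at least 10, 17 of 52 members and 32.4% of rows were called, which are nearly equal shares. The median log2 fold change was 0.10 over the members and 0.01 over all rows. With each sample left out in turn, 11 of the 18 calls held every time.

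Mmp7 and 3 other matrix metalloproteinases on chromosome 8 carry a motif that the transcription factor AP-1 is known to bind, while Mmp8 and Mmp20, which lie nearer to Mmp7, do not within their windows. Promoters of RefSeq (build GRCr8, 250 bases before to 50 after the start) were found for 43 of the 63 members, with 51 start sites. TGACTCA, sought on both strands, where it reads TGACTCA or TGAGTCA, was present in 5 of the 51 (9.8%) against 4.63% of all 33469 promoters: those of Mmp3, Mmp7, Mmp10, Mmp13 and Adam19. TATAAA, sought on both strands and unable to overlap it, was present in 12 of the 51 (23.5%) against 14.2%. The windows of the 4 matrix metalloproteinases are shown from 100 bases before to 20 after the start, since Mmp7 is the member with the greatest change and the other 3 share both motifs with it. Capitals mark the AP-1 motif and the TATAAA.
Mmp7, chr8:13132943-13133062, + strand: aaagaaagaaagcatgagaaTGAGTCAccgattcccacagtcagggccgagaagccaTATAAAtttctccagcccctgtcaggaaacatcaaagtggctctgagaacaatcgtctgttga
Mmp3, chr8:12925181-12925300, + strand: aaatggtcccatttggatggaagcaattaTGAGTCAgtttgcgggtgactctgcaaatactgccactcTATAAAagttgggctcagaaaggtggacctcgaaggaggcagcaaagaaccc
Mmp10, chr8:12974607-12974726, + strand: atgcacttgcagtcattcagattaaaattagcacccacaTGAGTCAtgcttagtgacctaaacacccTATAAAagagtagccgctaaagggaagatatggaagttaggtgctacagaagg
Mmp13, chr8:12782729-12782848, + strand: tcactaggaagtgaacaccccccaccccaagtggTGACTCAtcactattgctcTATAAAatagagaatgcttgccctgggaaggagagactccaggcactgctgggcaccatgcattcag
The AP-1 motif begins at position -80 from the start in Mmp7, -71 in Mmp3, -61 in Mmp10 and -66 in Mmp13, and TATAAA at -43, -32, -33 and -47 in the same order. A match describes these letters only; binding was not measured.

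The other 3 matrix metalloproteinases with the motif were low and were not called. Mmp3, stromelysin 1, was at 14.9, 0.992, 8.81 and 0.00563 in A2, B2, C2 and G2 and at 0 to 2.08 elsewhere (log2 fold change 1.39, SE 0.52, adjusted p = 0.0626). Only A2 and C2 were above the rest. Mmp10, stromelysin 2, was at 7.93, 3.98, 6.84 and 0.0109 in those samples against 0 to 2.95 (1.25, adjusted p = 0.0687). Mmp13, the interstitial collagenase of rodents, was at 42.5, 7.95, 16.5 and 8.39 against 0 to 18.6 (1.01, adjusted p = 0.123), with A2 the highest of all 24. Adam19, the fifth with the motif, was at 10577, 12131, 9786 and 11529 against 6398 to 10820.3 (log2 fold change 0.44, SE 0.07, adjusted p = 0.000259). Its ranges overlapped, and number 2 shared the upper end with number 1.

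After Mmp7, 11 further members rose in number 2. Timp1, an inhibitor that inflamed and wounded tissue secretes, was at 11485, 2746, 4766 and 2691 in A2, B2, C2 and G2 and at 1293 to 2541 in the others (log2 fold change 1.21, SE 0.21, adjusted p = 0.000332). All 4 lay above the other 20, but A2 was far above the other 3, and without A2 the log2 fold change was 0.79. Timp1 and Mmp7 were the 2 members so separated (3.17%, against 1.11% of all rows). Mmp14 was at 13047, 13092, 10633 and 12484 against 5961 to 10986 (log2 fold change 0.71, SE 0.06, adjusted p = 2.19e-07), with C2 below 2 samples of number 1. Adamts4, an aggrecanase that inflammation induces, was at 730.3, 262, 429 and 369.8 against 92.0 to 341 (log2 fold change 1.37, SE 0.22, adjusted p = 0.000188). Here A2 stood apart, and B2 lay below B1, at 341. Adamts3 was at 463, 97.5, 220.2 and 77.6 against 52.1 to 139 (log2 fold change 0.97, SE 0.25, adjusted p = 0.0085). Only A2 and C2 were high, and the adjusted p was 0.142 without A2 and 0.051 without C2. Mmp25 was at 733, 395, 479 and 342 against 153 to 400.5 (log2 fold change 1.04, SE 0.18, adjusted p = 0.000243). Mmp19, a protease of vessels and macrophages, was at 1749, 1636, 1282 and 1382 (0.50, adjusted p = 8.51e-05), with A2 and B2 above every sample of number 1. Adam12, at 722, 589.7, 727 and 638 (0.42, adjusted p = 0.00035), lay between number 1 and the other numbers. Mmp23 (0.42, adjusted p = 0.0025) and Adam17 (0.29, adjusted p = 0.00977) rose as well. Adam17 lost its call without A2 (adjusted p = 0.144). Adamts18 had a log2 fold change of 1.47 in number 2 and 1.66 in number 1 and never exceeded 24.3; the first call was lost without A2 or C2 (adjusted p = 0.206 and 0.129), and the second without A1, B1 or C1 (0.161, 0.0834 and 0.113).

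The 6 members that were lower in number 2, at 9.52% against 10.3% of all rows, included 2 of the 4 tissue inhibitors. Timp3 was at 19582, 31792, 29550.1 and 40137 in A2, B2, C2 and G2 (log2 fold change -0.58, SE 0.09, adjusted p = 0.000118), and number 2 held the lowest value in each of the 4 letters. Timp2, which inhibits Mmp2 and also takes part in its activation, was at 31445, 41858, 38444 and 37850.0 (log2 fold change -0.19, SE 0.05, adjusted p = 0.0152). Here too number 2 held the lowest value in each of the 4 letters. The size and the call rested on A2: without it the log2 fold change was -0.11 and the adjusted p 0.203. Mmp24, a membrane-type protease of neurons, was at 97.5, 101, 107 and 144 (log2 fold change -0.78, SE 0.14, adjusted p = 0.000353), again the lowest in each letter. Of the 6 membrane-type members, 2 were higher in number 2 (Mmp14 and Mmp25) and 2 lower (Mmp16 and Mmp24), with a median log2 fold change of -0.10. The remaining lower members were Mmp16 (-0.23, adjusted p = 0.0319), Adam22 (-0.38, adjusted p = 0.0102) and Adam23 (-0.46, adjusted p = 0.0397). None of these 3 kept an adjusted p under 0.05 without A2 (0.340, 0.0893 and 0.168), Mmp16 lost its call also without G2 (0.0745), and Adam23 stayed called in 13 of the 24 fits.

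Cell type markers moved with the numbers. Over all rows, 5.62% were called higher and 6.25% lower in number 1, and 11.5% and 10.3% in number 2. The summed fibroblast markers, 6 genes with Col1a1 among them, were 348420.0 to 457123 in number 1 and 283902 to 377429 in number 2, against 120118 to 216951 in the other 16 samples. The 3 collagen genes Col1a1, Col1a2 and Col3a1 were higher in each, Dcn and Lum were called in neither, and Pdgfra was lower in number 2 (-0.68, adjusted p = 5.72e-06). Endothelial markers were 176380.0 to 190091 in number 1, with 4 of 4 higher, and 108781 to 153381 in number 2, with 4 of 4 lower. Smooth muscle markers were 24826 to 35127 in number 1, with 3 of 5 higher. Neutrophil markers, 10 genes of which Ltf was near 0 throughout, were 5829 to 35424 in number 2, with A2 the highest of all samples, and 2 of 10 were higher; in number 1 they were 2948 to 12526, with 3 of 10 lower. Of 7 macrophage markers 3 were higher and 0 lower in number 2, and 2 were lower in number 1. Of 5 lung epithelial markers 1 was lower in number 1 and 2 in number 2, while 1 was higher in number 3 and 2 in number 4. In bulk tissue, fewer cells of a type and less RNA per cell cannot be told apart, and the part of these markers in the members' differences was not tested.

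**Figure D5:**
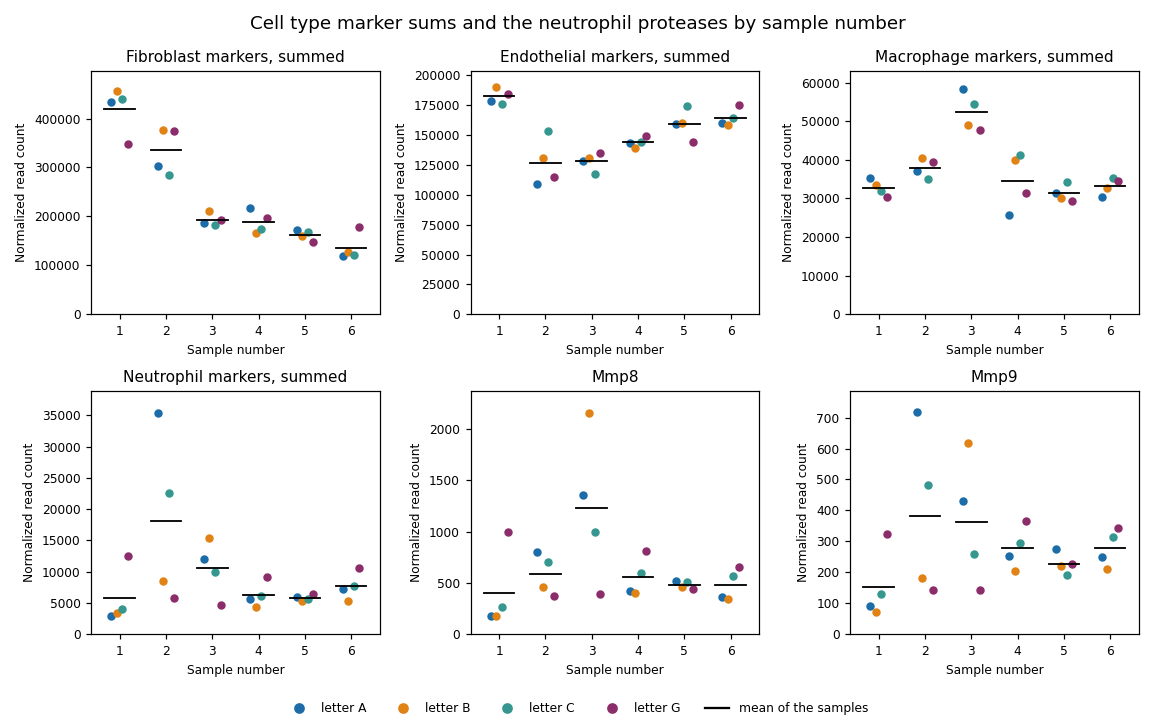
Summed normalized read counts of cell type markers and the counts of Mmp8 and Mmp9 (vertical axes, from 0) by sample number, 1 point per sample with 1 colour per letter, and the mean of each number. Fibroblast markers are higher in numbers 1 and 2 than in the other 16 samples, macrophage markers are highest in number 3, and A2 is the highest sample for neutrophil markers.

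Numbers 3 to 6 had fewer members called. For number 3, 8 members were called (12.7%, against 4.98% of all rows), 4 higher (2.89% of all rows) and 4 lower (2.09%). Adam1a, a fertilin subunit gene best known from sperm, was at 335, 416, 482 and 369.6 in A3, B3, C3 and G3 and at 169 to 334 elsewhere (log2 fold change 0.64, SE 0.14, adjusted p = 0.0105). These 4 samples lay above the other 20, as in 0.359% of all rows, but A3 did so by less than 1. The close paralog Adam1b was not called (0.82, adjusted p = 0.065), and both are uncertain because reads that match both genes may have been split. Acr and Odf1, the germ cell markers found in the table, summed to 76.2 to 206 in number 3 and 118 to 199 in number 1. Adamts9 (0.71, adjusted p = 0.0193), Adamts15 (0.48, adjusted p = 0.0139) and Timp3 (0.33, adjusted p = 0.0359) were the other higher members, and Adamts7, Adamts8, Adamts10 and Adam12 were lower, by 0.47, 0.45, 0.34 and 0.27 on the log2 scale. Macrophage markers were 47785 to 58431 in number 3, with 3 of 7 higher, and 2 of 4 endothelial markers were lower. The count was 5 without A3 or without B3 and 1 without C3, and only Adamts7 was called in each of the 24 fits.

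For number 4, 2 members were higher (2.72% of all rows) and 6 lower (2.02%), together 12.7% of the members against 4.74% of all rows. Mmp24 was at 251.3, 211, 220.2 and 364 in A4, B4, C4 and G4 (0.65, adjusted p = 0.00874) and Adam15 at 8024, 7390.3, 6131 and 7911 (0.24, adjusted p = 0.0256). Adam12 was at 345, 282, 338 and 367 (log2 fold change -0.79, SE 0.07, adjusted p = 1.13e-05), all 4 below the other 20, and so was Adamts3 (3.17% of members, against 0.124% of all rows), which was not called (-0.78, adjusted p = 0.0838). The other lower members were Mmp14 (-0.44), Adam17 (-0.34), Adamts4 (-0.87), Adamts7 (-0.43) and Adamts12 (-0.58). Skeletal muscle markers summed to 70585 in A4 and 15960 in B4 and to at most 3533 in the other 22 samples, and squamous epithelial markers to 17768 in A4. Of the fibroblast markers, Dcn and Pdgfra were higher in number 4. Without both samples, which leaves only C4 and G4 in number 4, 1 member was called (0.0457% of all rows). In that fit the log2 fold change was -0.58 for Adamts12, -0.42 for Adamts7, -0.41 for Mmp14, -0.68 for Adamts4, -0.26 for Adam17 and 0.15 for Adam15. Without A4 alone 4 members were called, and without B4 alone 5. Adam12, Mmp14, Adamts7 and Adamts12 were called in each fit that left out 1 sample. Adamts20, a versicanase, was at 50.3 in A4 and at most 19.4 in any other sample.

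Numbers 5 and 6 had lower members only, and number 1 is part of the reference of each. For number 5 there were 6 (9.52%, against 1.97% of all rows, of which 0.88% were higher and 1.09% lower): Mmp14 (-0.31), Adam19 (-0.39), Adamts2 (-0.39), Adamts9 (-0.76), Adamts12 (-0.37) and Adamts17 (-0.61). All 6 were also called higher in number 1. Within each of the 4 letters the lowest value was in number 5 for Adam19 but in number 4 for Adamts12. Leaving out single samples changed the calls of number 5. There were 0 members called without B5, without C5 or without G5, 2 without A5, and 3 without A1, B1, B3, C3, C6 or G4. For number 6 there were 9 (14.3%, against 8.13% of all rows, of which 4.11% were higher and 4.02% lower). They included Adamts18 (-1.78), Adamts9 (-1.01), Adamts19 (-0.91), Adamts17 (-0.83) and Mmp2 (-0.43). All 9 except Adamts15 were also called higher in number 1. Adamts19 was at 88.4, 67.2, 81.6 and 92.3 in A6, B6, C6 and G6, the lowest value in each letter. The count was 5 without A6 and 4 without B6, and Mmp14, Adamts9, Adamts17 and Adamts19 were called in each of the 24 fits. Fibroblast markers were 148212 to 171243 in number 5 and 120118 to 178341 in number 6, with the same 3 collagen genes lower in each and none of the other 3 called. In number 6, 3 of 5 smooth muscle markers were lower and 2 of 4 endothelial markers higher.

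Several well-known members were not called between numbers. The neutrophil collagenase Mmp8 was at 1362, 2159.5, 1000.0 and 396 in A3, B3, C3 and G3 and at 175, 180.3, 266 and 998 in A1, B1, C1 and G1, with an adjusted p of 0.105 in the F test. The neutrophil gelatinase Mmp9 was at 716, 183, 484 and 145 in number 2 and at 91.4, 71.5, 130.0 and 323 in number 1 (adjusted p = 0.226). For both, G1 was the highest sample of number 1, and G1 also had the highest neutrophil marker sum there, 12526 against 2948 to 4091 in A1, B1 and C1. Without the 6 samples of letter G the F test gave adjusted p-values of 0.00011 for Mmp8 and 0.00501 for Mmp9, an alternative chosen after the data were seen. Adam10, the main sheddase of Notch receptors, ranged from 12406 to 17242 (adjusted p = 0.274), and Adam9, another widely expressed sheddase, from 8108 to 10794 (adjusted p = 0.0838). Adam33, a gene linked to asthma, ranged from 1248 to 2694 (adjusted p = 0.43), and Adamts1, which cuts versican, from 3742 to 8616 (adjusted p = 0.0917). Timp4 ranged from 56.8 to 289 (adjusted p = 0.227), with A4 the highest. Its adjusted p in the F test was 0.0264 without letter G. Without the samples numbered 2 the F test gave adjusted p-values of 0.0307 for Adam9 and 0.0307 for Adamts1. Both alternatives were chosen after the data were seen. Adam8, a protease of leukocytes, was called in the F test (adjusted p = 0.0276) but in no single number, and lost the call without A4 and B4 (adjusted p = 0.133). Mmp11, a stromelysin of tumour stroma, ranged from 717 to 1689.7 (adjusted p = 0.958), with A2 the lowest. Adam4, Adam11 and Adam21 were not called either (adjusted p = 0.955, 0.496 and 0.491). The 11 members with a mean under 10 were Mmp3, Mmp10, Mmp20, Mmp21, Adam2, Adam6b, Adam18, Adam30, Adam32, Adamts16 and Adamts18, and of these only Adamts18 was called in the F test.

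Genes that activate, hold or inhibit these proteases were taken as a list of 32, all in the table. The fits that left out samples covered the members and not this list. In the F test over numbers 21 of 32 were called, against 31.5% of all rows, and 0 in the F test over letters. For number 1, 5 were higher and 4 lower, against 5.62% and 6.25% of all rows (median log2 fold change 0.04, against -0.02 over all rows). For number 2, 10 were higher and 7 lower, against 11.5% and 10.3% of all rows (median 0.05, against 0.01). Reck, a membrane-anchored inhibitor of Mmp2, Mmp9 and Mmp14, was higher in number 1 (8784 to 9611; 0.47, adjusted p = 0.0017) and lower in number 2 (3884 to 7003; -0.59, adjusted p = 9.53e-05). Pcsk5, a proprotein convertase, was higher in number 1 (3419 to 3974; 0.83, adjusted p = 3.82e-07). Furin, the convertase that activates membrane-type enzymes and many ADAMs, had a log2 fold change of 0.16 in number 2 (adjusted p = 0.00284). In the same number Thbs2, which promotes the uptake of Mmp2, was at 747 to 2324 (1.92, adjusted p = 5.13e-06), and A2m, a protease inhibitor that traps its targets, at 69.5 to 258 (1.83, adjusted p = 0.000314). Lcn2, which binds Mmp9, was at 552 to 4704 (1.58, adjusted p = 0.00965). Rhbdf2, a partner of Adam17 in its transport to the surface, was higher in number 2 (0.42, adjusted p = 0.000116) and lower in number 1 (-0.22, adjusted p = 0.0301).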

How the data were processed

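The authors deposited 1 table of normalized read counts per gene for 24 lung samples, used here as a signal that is never negative. The values are not whole and sum to nearly the same total in each sample. Per the submitters' processing notes, STAR and GRCm38, a mouse build, were used, with no role or version given. If rat reads were placed on a mouse build, genes that differ between the species could be counted less. The counter, annotation and normalization are not given in the sources used here.

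The values were fitted with limma 3.58.1 in R 4.3.3 (trend on log2(value + 1), all 30667 rows, no filter). The model for letters had 4 means, with an F test and 6 contrasts. The model for numbers added the number to the letter and compared each number with the mean of the other 5. P-values are two-sided and adjusted by Benjamini-Hochberg over all rows, with a threshold of 0.05. Fold changes on this scale understate those of low genes. The fitting was tested on simulated data with independent noise. Those data do not carry the likeness between samples of the same number, so the test does not cover it.

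Members were chosen by symbol, and 62 of 63 match a rat RefSeq symbol (not Adam6b). The members, the role, regulator and marker lists and the named genes (23 by role, 4 by the F test over letters, 8 by that over numbers, 4 by highest over median) were chosen with earlier results of these data known. Other members that are named were chosen after their values were seen. The values of 1 gene of the regulator list are not reported here.

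Deviations from the letter means were correlated between samples of equal number, as a check of pairing. All 6 pairs exceeded 0.1 in B against A (0.17 to 0.59) and in C against B (0.13 to 0.60), but not in the other 4 contrasts. This pairing rests on the data and on no label. Alternatives were the pseudocount, a filter on low values, other scalings, the replicate block, the letter term and leaving out samples.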

Additional observations from a re-analysis of the deposited data

Results flagged for a closer look

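Within each letter, the highest or the lowest of the 6 values stood far from the nearest other value in 36 of 136 groups (34 members in 4 letters), where chance gives about 1 in 20, or 6.8. Some of these members were chosen for their values in these samples, 8 by the F test over numbers, 4 by that over letters and 4 by their highest value over the median, so a count above that rate is in part fixed by the choice. Of the 36, 16 were samples numbered 2. By sample, A2 had 6, A1, C1 and C2 had 5 each, B2 and B3 had 3 each, A4, G1 and G2 had 2 each, and B1, C3 and C6 had 1 each.

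Mmp7 stood apart in number 2 of every letter: 196 in A2 (nearest 9.03), 78.6 in B2 (nearest 11.7), 84.4 in C2 (nearest 13.4) and 187 in G2 (nearest 6.72). The other members that stood high there were Mmp3 with 14.9 in A2 (nearest 1.92) and 8.81 in C2 (nearest 2.08), Timp1 with 11485 in A2 (nearest 2541) and 4766 in C2 (nearest 2307), Adamts3 with 463 in A2 (nearest 110.4) and 220.2 in C2 (nearest 120.2), Adamts4 with 730.3 in A2 (nearest 209), Mmp14 with 12484 in G2 (nearest 8278) and Adam9 with 10758 in C2 (nearest 9582). Timp3 stood low, with 19582 in A2 (nearest 33195) and 31792 in B2 (nearest 45487).

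In number 1 the values were high: Adamts17 with 4248 in A1 (nearest 1269), 4294 in C1 (nearest 1969.5) and 3402 in G1 (nearest 1713), Adamts19 with 311 in A1 (nearest 138), 394 in C1 (nearest 178) and 309 in G1 (nearest 160.4), Adamts12 with 2050.4 in A1 (nearest 929) and 1981 in C1 (nearest 1119), Adamts2 with 8598 in A1 (nearest 4909.9) and 8768 in C1 (nearest 4980.2), Mmp2 with 21989 in A1 (nearest 14296) and 23928 in C1 (nearest 15021) and Adamts13 with 185 in B1 (nearest 126).

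Mmp8 stood high with 2159.5 in B3 (nearest 464), Mmp9 with 617 in B3 (nearest 221) and Mmp20 with 7.90 in B3 (nearest 1.048). Timp4 stood high with 289 in A4 (nearest 130.0) and 176 in C3 (nearest 109), Adamts20 with 50.3 in A4 (nearest 8.03) and 16.9 in B2 (nearest 10.3), and Adam22 with 179 in C6 (nearest 142).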

How the results depend on the processing

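The count of members called between letters was 0 in the F test and in the 6 pairs, with a pseudocount of 0.1, rows with a mean of at least 10, quantile normalization, 75th percentile scaling, without the samples numbered 2 and in all 24 fits that left out 1 sample (0 to 0 in each). With the number as a replicate block, G against A called 1 member, Timp3, with a log2 fold change of 0.42 and an adjusted p of 0.0361, and 1.27% of all rows (0.00652% without the block), but the numbers were not taken to pair these letters. The block changed no other call between letters. Leaving out 1 sample gave 34 to 42 members in the F test over numbers, 18 to 28 for number 1, 14 to 21 for number 2, 1 to 11 for number 3, 4 to 12 for number 4, 0 to 7 for number 5 and 4 to 11 for number 6. Number 5 called 3 members with no letter term (1.61% of all rows) and 1 without letter G (0.538%), an alternative chosen after the data were seen, and number 4 called 1 without A4 and B4 (0.0457%). The cause was not tested. Of the 37 members called over numbers, 33 were also called without letter G. Among rows with a mean of at least 10, numbers 1 to 6 called 25, 17, 8, 9, 6 and 8 members. The shares of those rows called were 17.6%, 32.4%, 7.77%, 7.98%, 3.66% and 13.3%. No named member's value reversed. Depth is unknown, so no counting error can be given, and members with a mean under 10 are the least certain.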
